A study of Mus musculus with 19 samples.

Results

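Cdh1, Krt18 and Twist1 were followed through the differentiation of P19CL6 cells, a mouse embryonal carcinoma line that can form beating heart muscle. Cdh1 and Krt18 are the usual epithelial markers and Twist1 a mesenchymal one. The genes were chosen by symbol, as entries of any of the 4 tables in which the authors compared a later day with day 1, and all 3 were found, among 4213 genes listed at any day. RNA was profiled by digital gene expression tag counting, in which a short tag stands for each transcript molecule. There were 3 libraries at day 1 and 4 each at days 4, 7, 10 and 14, all of the same line, and the way differentiation was induced is not given in the sources used here. Summed depth was between 22.9M and 23.8M tags at the later days and 17.4M tags at day 1. The deposited files give a mean over the libraries of a day and no value of a single library, so the spread between replicates cannot be computed and no p-value is given.

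Epithelial cells form sheets held together by adherens junctions. Cdh1 (Entrez Gene 12550) encodes E-cadherin, the transmembrane protein that joins neighbouring cells at these junctions and is anchored to actin through catenins. Krt18 (16668) encodes keratin 18, an intermediate filament protein of simple epithelia that assembles with keratin 8. In epithelial-mesenchymal transition (EMT), which takes place when mesoderm forms at gastrulation, cells lose E-cadherin and gain motility. Twist1 (22160) encodes a basic helix-loop-helix (bHLH) transcription factor of cranial, somitic and limb mesenchyme, which binds E-box DNA (CANNTG) as a dimer with E proteins and is one of the factors known to lower Cdh1 expression. E-cadherin is also made by undifferentiated embryonal carcinoma and embryonic stem cells.

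Promoter sequence was searched for E-boxes because bHLH factors act through them. It is shown for Krt18 and Twist1, since the RefSeq table of build GRCm38.p6 held these 2 of the 3 genes and no entry for Cdh1. The 250 bases upstream of the annotated start are printed 5′ to 3′ on the plus strand, at chr15:102027966-102028215 for Krt18 and chr12:33957421-33957670 for Twist1. Capitals mark matches to CANNTG or to TATAA, which do not overlap.
Krt18: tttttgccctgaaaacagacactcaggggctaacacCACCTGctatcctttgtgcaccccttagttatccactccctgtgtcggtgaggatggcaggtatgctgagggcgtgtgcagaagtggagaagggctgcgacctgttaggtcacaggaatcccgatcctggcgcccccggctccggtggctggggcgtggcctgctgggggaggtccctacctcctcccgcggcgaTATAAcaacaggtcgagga
Twist1: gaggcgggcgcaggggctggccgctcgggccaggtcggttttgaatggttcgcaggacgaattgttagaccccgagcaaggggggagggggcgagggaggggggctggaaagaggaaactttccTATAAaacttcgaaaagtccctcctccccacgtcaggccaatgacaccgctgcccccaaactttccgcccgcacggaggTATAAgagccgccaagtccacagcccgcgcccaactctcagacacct

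Searched on both strands, the Krt18 window held 1 E-box, CACCTG, 214 to 209 bases before the start, and the Twist1 window held 0. Of the 32851 promoter windows in the table, 66.2% held at least 1 CANNTG, so neither state is unusual. TATAA occurred once in the Krt18 window, 19 to 15 bases before the start, and at 2 places in the Twist1 window, the nearer 47 to 43 bases before the start. Of all windows, 22.8% held TATAA on either strand. The core letters of the Smad-binding element, CAGAC, used by the transcription factors of TGF-β signalling, occurred once in each window (42.2% of all windows). A match describes the letters and is not a binding site.

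The 3 genes took different courses. Krt18 was higher than at day 1 at every later day, with its highest level at day 7. Cdh1 was higher at day 7 and lower at days 10 and 14. Twist1 was higher at days 7, 10 and 14, and its level increased at each of them. Levels are given in TPM, a tag count scaled to library size in the unit the files name TPM, as averaged by the authors over a day's libraries. The 95% intervals given in brackets (exact Poisson for levels, exact Clopper-Pearson for folds) cover counting error only. The words rose and fell are used for genes that appear in the authors' deposited table of a day, none of which differed by less than 2-fold. A gene missing from a table has no value for that day, which does not show that its level was the same. Since these are bulk cultures, fewer cells of a type and less RNA per cell cannot be told apart.

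**Figure D1:**
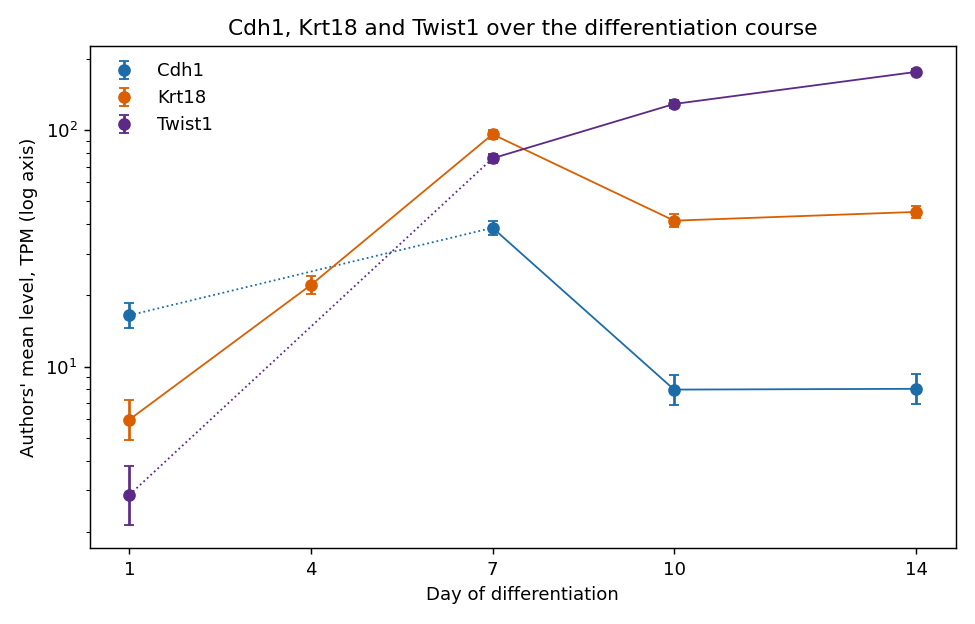
Mean level of Cdh1, Krt18 and Twist1 in TPM (log axis) against day of differentiation; points are the deposited means of each day, bars are exact 95% Poisson intervals (counting error only), and dotted lines span day 4 where Cdh1 and Twist1 have no value. Krt18 peaks at 95.93 TPM at day 7, Cdh1 drops below its day 1 level at days 10 and 14, and Twist1 reaches 176.07 TPM at day 14.

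Krt18 began at 5.97 TPM (4.88 to 7.23) on day 1. It reached 22.14 TPM (20.3 to 24.1) on day 4 and 95.93 TPM (92 to 99.99) on day 7, and then stood at 41.37 TPM (38.8 to 44.1) on day 10 and 45.05 TPM (42.4 to 47.8) on day 14. The 5 levels run, from lowest to highest, day 1, day 4, day 10, day 14 and day 7, and the intervals of days 10 and 14 overlap while all others are apart. Relative to day 1, Krt18 was 3.71-fold higher (3.00 to 4.62) on day 4 and 16.1-fold higher (13.2 to 19.8) on day 7. The fold was 6.93 (5.66 to 8.57) on day 10 and 7.55 (6.17 to 9.32) on day 14.

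The day 7 peak of Krt18 was steep on both sides. Day 7 exceeded day 4 by 4.33-fold (3.94 to 4.78), and day 10 was 2.32-fold lower than day 7 (2.15 to 2.51). Day 14 over day 10 gave a ratio of 1.09 (0.997 to 1.19), an interval that includes 1. In the authors' deposited table for day 7, 19.7% of the 1090 genes that rose had a larger log2 ratio than Krt18. At days 4, 10 and 14 these shares were 44.5%, 30.4% and 32.6% of the rising genes in the authors' deposited tables. Of 372 genes listed as higher at all 4 days, 59 had their highest level at day 7, as Krt18 did.

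Cdh1 stood at 16.47 TPM (14.6 to 18.5) at day 1, 38.59 (36.1 to 41.2) at day 7, 7.99 (6.88 to 9.24) at day 10 and 8.05 (6.96 to 9.28) at day 14, and was not listed at day 4. From lowest to highest, days 10 and 14 shared nearly the same level, day 1 lay above both, and day 7 was highest. Cdh1 was 2.34-fold higher (2.05 to 2.69) at day 7 than at day 1. It was 2.06-fold lower (1.71 to 2.49) at day 10 and 2.05-fold lower (1.70 to 2.47) at day 14. Against day 7, the day 10 level was 4.83-fold lower (4.11 to 5.69), the largest step of this gene between listed days. Day 14 over day 10 gave a ratio of 1.01 (0.819 to 1.24).

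The falls of Cdh1 were small among those listed. In the authors' deposited tables the log2 ratios were -1.04 at day 10 and -1.03 at day 14, where the smallest absolute value of any listed gene is 1.00, and 93.1% and 94.6% of the fallen genes of those days fell further. The interval of each fall reaches below 2-fold. The rise at day 7, at a deposited log2 ratio of 1.23 in the authors' deposited table, was also below the median of 1.87 for rising genes. The change of direction was shared with 1 other gene. Of 1093 genes listed at days 7, 10 and 14, 2 were higher at day 7 and lower at days 10 and 14, Cdh1 and Arrdc4, an arrestin family gene known for its response to glucose. Arrdc4 stood at 42.74, 2.97 and 1.93 TPM at days 7, 10 and 14, against 11.65 TPM at day 1. Only Cdh1 of these 2 genes was not listed at day 4.

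Twist1 stood at 2.87 TPM (2.13 to 3.78) at day 1, 75.89 (72.4 to 79.5) at day 7, 128.82 (124 to 134) at day 10 and 176.07 (171 to 181.5) at day 14, and was not listed at day 4. The levels follow the order of the days and no intervals overlap. Over day 1, Twist1 was 26.4-fold higher (19.97 to 35.8) at day 7, 44.9-fold (33.96 to 60.6) at day 10 and 61.4-fold (46.5 to 82.8) at day 14. These folds rest on 50 tags summed over the 3 day 1 libraries. Day 10 was 1.70-fold higher (1.60 to 1.80) than day 7, and day 14 was 1.37-fold higher (1.30 to 1.43) than day 10. In the authors' deposited tables, between 14.1% and 15.7% of rising genes had a larger log2 ratio than Twist1. There were 407 genes not listed at day 4 and higher at days 7, 10 and 14, and 176 of them increased in level at each listed day, Twist1 among them.

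**Figure D2:**
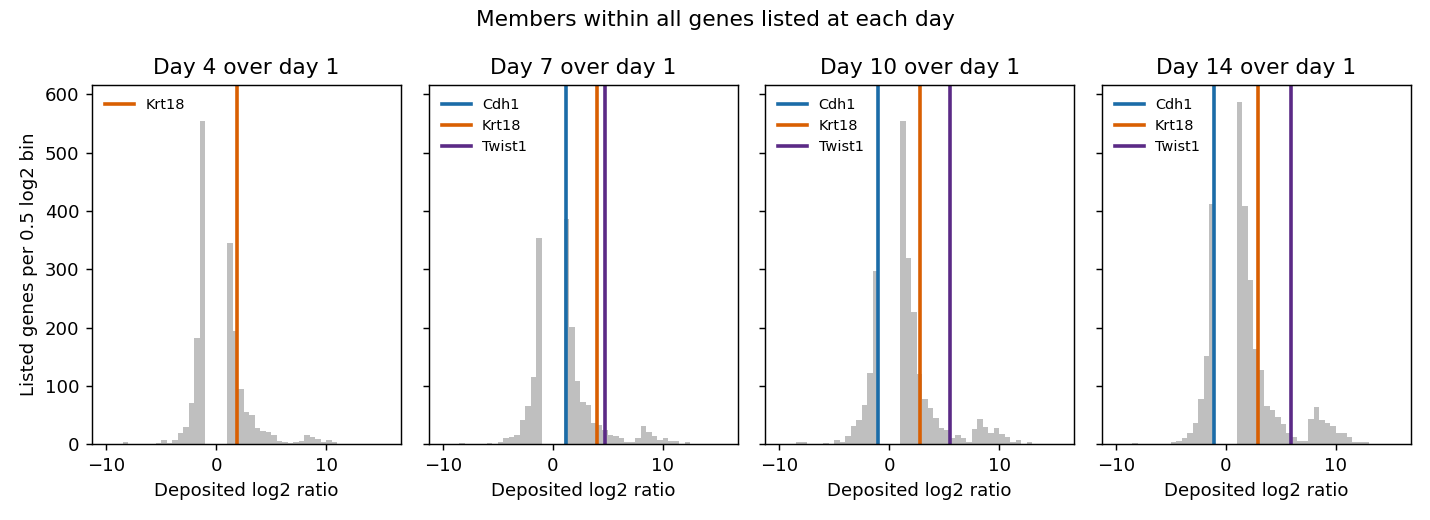
Histograms of the deposited log2 ratio (later day over day 1) of all genes listed at days 4, 7, 10 and 14, in bins of 0.5, with vertical lines for the 3 genes; the empty middle is the range below 2-fold that the deposited tables do not list. Krt18 lies right of zero in all 4 panels, Twist1 farther right in 3 and Cdh1 close to the edge of the empty range on the right at day 7 and on the left at days 10 and 14.

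At day 7 all 3 genes were listed as higher, where 25.9% of the 4213 genes listed at any day rose and 14.9% fell. At days 10 and 14, Krt18 and Twist1 were listed as higher and Cdh1 as lower, and the shares of all genes that rose were 40.2% and 49.8%, and of those that fell 14.2% and 17.2%. At day 4 only Krt18 of the 3 genes was listed, as higher, when 21.3% of all genes rose and 20.9% fell. The 3 genes were required to be listed at some day, as were all 4213. For the gene lists below, shares of the 4213 therefore compare with the members listed at any day, not with all symbols of a list. The 4 comparisons share the day 1 libraries, so they are not independent of each other.

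The gene for the partner of keratin 18 was also higher at every later day, with another order of levels. Krt8, which lies next to Krt18 in the RefSeq gene table, had 13.89 TPM on day 1 and 44.49, 102.74, 98.42 and 65.23 TPM on days 4, 7, 10 and 14. Over day 1, Krt8 was 3.20-fold higher (2.78 to 3.70) on day 4 and 7.40-fold higher (6.48 to 8.48) on day 7. The fold was 7.09 (6.20 to 8.12) on day 10 and 4.70 (4.10 to 5.40) on day 14. The counting intervals of the Krt8 and Krt18 folds overlap at days 4 and 10 and are apart at days 7 and 14. Between days 10 and 7 the ratio for Krt8 was 0.958 (0.904 to 1.02), whereas Krt18 had 41.37 TPM at day 10, against 95.93 TPM at day 7. Between days 14 and 10 it was the other way about, with a ratio of 0.663 (0.621 to 0.707) for Krt8 and 1.09 for Krt18. Keratins have close paralogs and Krt8 has a processed pseudogene (Krt8-ps), and how tags shared between genes were assigned is not given in the sources used here.

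Other keratins were at low levels. Of the 17 keratin genes on the list, 5 were listed at any day, and each rose whenever listed. The authors' deposited tables list 3 keratins as higher on each of days 4, 7 and 10 and 4 on day 14, with 0 lower, and Krt18 is 1 of them each time. Over those days 21.3%, 25.9%, 40.2% and 49.8% of the 4213 genes were higher. At day 7 the list's median is Krt18's own value, and at day 14 the median log2 ratio was 5.54, or 3.48 with genes at 0 set to their bound, against 1.59 for all genes in the authors' deposited table. Krt19, a keratin of simple epithelia, had 7.49 TPM at day 7 and 0 tags at day 1, at least 43.5-fold higher against a floor of 3 tags summed over the day 1 libraries. Krt7, of simple and glandular epithelia, had 10.78 TPM at day 14 and 0 tags at day 1, at least 62.6-fold higher. Krt19, Krt7 and Krt15 had 0 tags at day 1, so a fall of these 3 could not have been listed.

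Epithelial junction genes were mostly not listed, and those that were went in both directions. Of 36 genes for junction and polarity proteins, 7 were listed at any day, 3 of them as higher whenever listed, 3 as lower and Cdh1 as both. None appears in the authors' deposited table of day 4. Then 3 rose and 1 fell at day 7, the count was 1 up and 3 down at day 10, and 3 up with 2 down at day 14. Cdh1 is among them on each of these days. The higher share of listed junction genes was thus 75%, 25% and 60% on days 7, 10 and 14, against 63.5%, 73.9% and 74.4% of all listed genes. These shares rest on 4, 4 and 5 genes. Dsc2, listed as higher at days 7 and 14, had 7 summed tags at day 1, too few to be listed as lower. Epcam, an adhesion molecule of epithelia and pluripotent cells, had 18.09 TPM at day 10 and 37.83 TPM at day 1, 2.09-fold lower (1.85 to 2.37). Spint1, an inhibitor of epithelial serine proteases, had 2.1 TPM at day 7 and 8.67 TPM at day 1, 4.13-fold lower (2.97 to 5.82).

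At day 10 F11r was the junction gene that rose, while Epcam and Spint1 fell as Cdh1 did, and at day 14 Pkp2 fell with Cdh1. F11r, for the tight junction adhesion molecule JAM-A, stood at 64.67, 73.61 and 54.87 TPM at days 7, 10 and 14, against 22.56 TPM at day 1. Jup, for plakoglobin, a linker of cadherins to the cytoskeleton, had 36.96 TPM at day 14 and 10.45 TPM at day 1, 3.54-fold higher (3.01 to 4.17). Pkp2, for a desmosomal plaque protein of epithelia and heart, had 27.94 TPM at day 14 and 58.03 TPM at day 1, 2.08-fold lower (1.88 to 2.29). Of 13 epithelial transcription and splicing regulators 2 were listed by current symbol, and Grhl3, a grainyhead factor of surface epithelium, had 30.36 TPM at day 10 and 8.15 TPM at day 1, 3.73-fold higher (3.11 to 4.49).

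**Figure D3:**
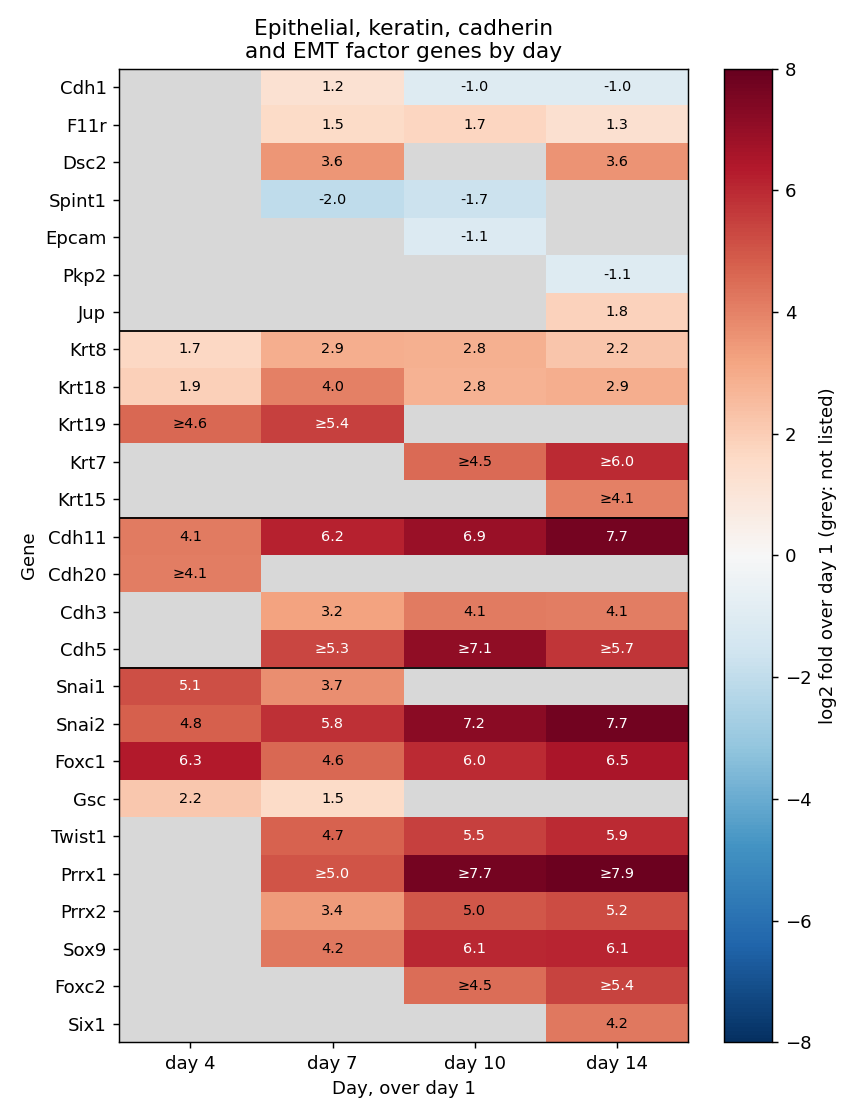
Log2 fold over day 1, computed from summed tags, of every listed gene of the junction, keratin, cadherin and EMT factor lists (rows, grouped by list in that order) at days 4, 7, 10 and 14 (columns); grey means not listed, and ≥ marks a bound against a floor of 3 tags. Blue cells, for lower levels, occur among the junction genes on top, with Cdh1 (drawn there and not again with the cadherins) at -1.0 at days 10 and 14.

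Of 19 cadherin genes, 5 were listed at any day, and Cdh3, Cdh5, Cdh11 and Cdh20 were higher whenever listed. Cdh5 and Cdh20 had 0 tags at day 1, and Cdh3 and Cdh11 had 12 tags each summed over 3 libraries. Every listed gene had a mean of at least 12 tags per library on its higher side, so these 4 could be listed as higher only, and their direction is no contrast with Cdh1. Cdh11, the cadherin of mesenchyme, stood at 12.2, 49.25, 82.17 and 138.86 TPM at days 4, 7, 10 and 14, against 0.69 TPM at day 1. At day 14 it was 201.6-fold higher (115 to 390.5) than at day 1, on 12 summed tags at day 1. Cdh3, for P-cadherin, lies next to Cdh1 in the RefSeq gene table and stood at 6.38, 12.14 and 11.62 TPM at days 7, 10 and 14, against 0.69 TPM at day 1. At day 10 Cdh3 was 17.6-fold higher (9.93 to 34.5) than at day 1, on its 12 summed tags at day 1. Cdh5, the cadherin of endothelium, had 24.03 TPM at day 10 and 0 tags at day 1. Cdh2, for N-cadherin, was not listed at any day.

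The catenins that hold E-cadherin to actin were largely not listed, and their genes are not shown to be unchanged. Of 16 genes for catenins and adherens junction partners, 6 were listed. Vcl, for vinculin, had 82.04 TPM at day 10 and 210.25 TPM at day 1, 2.56-fold lower (2.42 to 2.71). Adam10, for a protease that cleaves E-cadherin, stood at 63.3, 68.61, 71.86 and 64.9 TPM at days 4, 7, 10 and 14, against 28.87 TPM at day 1. Under the authors' own pathway annotation, 50 genes of the adherens junction pathway were listed at any day, of which the authors' deposited table of day 14 has 29 higher and 4 lower, where 49.8% of all genes were higher and 17.2% lower. Their median log2 ratio was 1.49 at day 10 and 1.73 at day 14, against 1.49 and 1.59 for all genes of the authors' deposited tables. For 102 genes of the tight junction pathway the medians were 1.26 and 1.42 in the authors' deposited tables of the same days, below those of all genes. For 48 genes of the cell adhesion molecules pathway the medians of these days were 2.07 and 2.50, above those of all genes.

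Twist1 belonged to a group of EMT transcription factors that rose whenever listed. Of 17 genes, 10 were listed at any day and 0 fell. The authors' deposited tables hold 4 of them as higher on day 4, 8 on day 7, 7 on day 10 and 8 on day 14, Twist1 included from day 7. The shares of all 4213 genes that were higher were 21.3%, 25.9%, 40.2% and 49.8% on these days. The median log2 ratio of those listed at day 14 was 6.26, and 6.01 with genes at 0 set to their bound, against 1.59 for all genes in the authors' deposited table. Many of these genes were at or near 0 tags at day 1, and a gene at such a level could not be listed as fallen, since every listed gene had a mean of at least 12 tags on its higher side.

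The factors differed in timing. Snai1, a zinc finger repressor of Cdh1 active at the primitive streak, had 30.37 TPM at day 4 and 11.13 TPM at day 7, against 0.86 TPM at day 1, and was not listed later. Gsc, a homeobox gene of the organizer, followed it with 15.14 TPM at day 4 and 9.64 TPM at day 7, against 3.39 TPM at day 1. Snai2, a related repressor, stood at 3.11, 6.6, 17.39 and 24.58 TPM at days 4, 7, 10 and 14, against 0.12 TPM at day 1, which is 2 summed tags. Prrx1, a homeobox gene of limb and cranial mesenchyme, stood at 5.65, 35.43 and 40.02 TPM at days 7, 10 and 14, with 0 tags at day 1. Sox9, of cartilage and neural crest, stood at 9.55, 34.29 and 35.24 TPM at days 7, 10 and 14, against 0.52 TPM at day 1. Snai1 and Gsc were listed at days 4 and 7, when Cdh1 was not listed or was higher. Twist1, Prrx1 and Sox9 were listed from day 7 on. Zeb1, Zeb2 and Twist2 were not listed at any day.

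**Figure D4:**
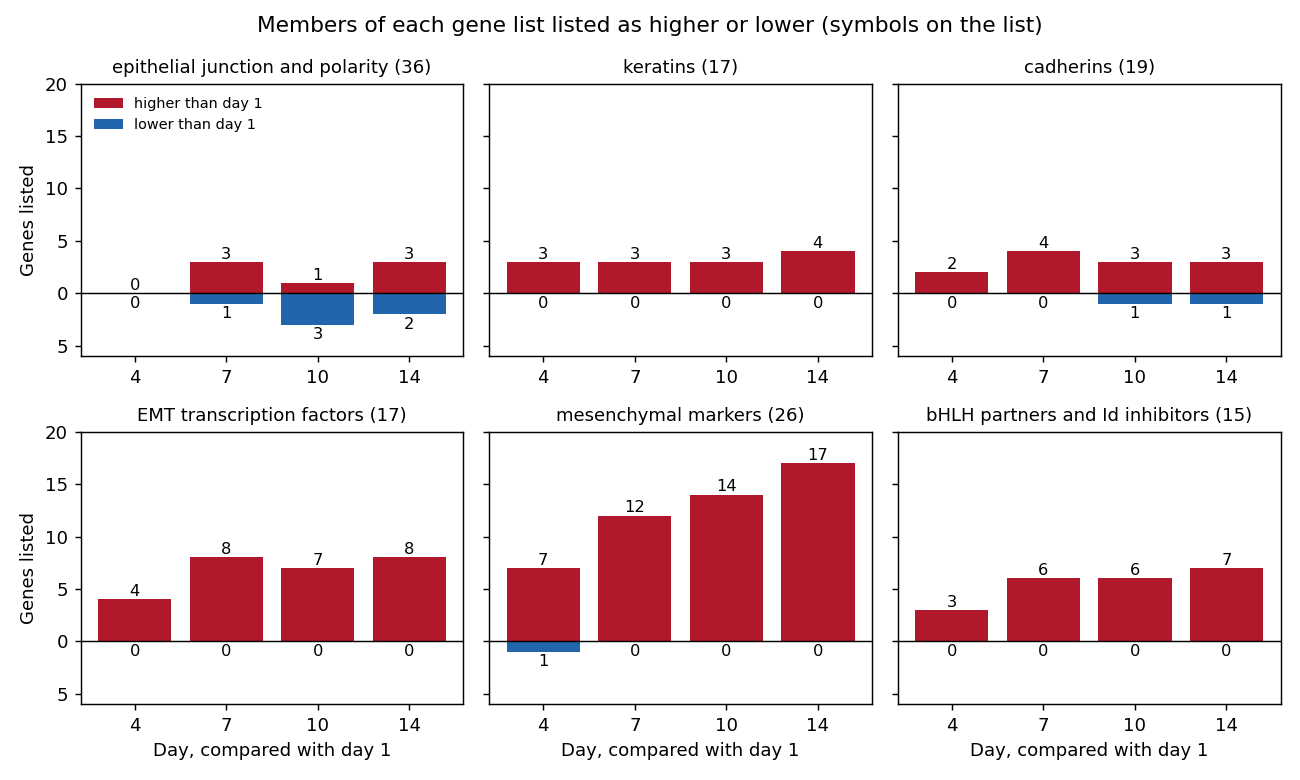
Number of genes of 6 lists listed as higher (bars above zero) or lower (bars below zero) than at day 1, by day, with the number of symbols on each list in parentheses. The EMT factors, keratins and the bHLH list have 0 fallen genes at every day, the mesenchymal list grows to 17 risen genes at day 14, and the junction list has at most 3 in either direction.

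Mesenchymal markers rose over the same days and partly before Twist1 was listed. Of 26 genes, 18 were listed at any day, of which days 4, 7, 10 and 14 have 7, 12, 14 and 17 as higher in the authors' deposited tables, while 1 fell at day 4 and 0 at the other days. Of all 4213 genes, 21.3%, 25.9%, 40.2% and 49.8% were higher. Cdh11, Pdgfra, Pdgfrb, Col1a1, Col1a2, Acta2, Thy1 and Lum had at most 34 summed tags at day 1, too few to be listed as lower. They could be listed as higher only, so their direction is no evidence of a shared rise. Not all listed markers followed the course of Twist1. Acta2, for smooth muscle actin, stood at 18.34, 136.79, 63.12 and 69.89 TPM on days 4, 7, 10 and 14, against 1.95 TPM at day 1. Itga5, for the integrin chain that binds fibronectin, had 106.21 TPM at day 4 and 72.59 TPM at day 7, against 23.02 TPM at day 1. The summed level of the 17 markers listed at day 14, all as higher, was 1302 TPM at day 14 and 305.9 TPM at day 1. Sums of a list, here and below, take only its genes listed at that day. Their direction against day 1 therefore follows from the listing, and the genes summed can differ between days. Vim, for the mesenchymal intermediate filament vimentin, had 257.7 TPM at day 14 and 54.42 TPM at day 1, 4.74-fold higher (4.42 to 5.08). Col1a2, for a chain of fibrillar collagen I, had 30.54 TPM at day 14 and 0.12 TPM at day 1. Fn1, for fibronectin, was highest at day 4 among the later days, at 323.36 TPM, against 23.13 TPM at day 1. Tagln, an actin-binding smooth muscle gene, was the marker that fell at day 4, to 7.21 TPM, against 16.59 TPM at day 1, and it stood at 163.81, 60.59 and 42.87 TPM on days 7, 10 and 14.

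Among bHLH genes and their inhibitors, the Id genes were high. Id proteins lack a DNA-binding region and hold E proteins away from factors such as Twist1. Id2 stood at 165.03, 339.1, 738.65 and 734.93 TPM at days 4, 7, 10 and 14, against 44.02 TPM at day 1, 16.7-fold higher (15.5 to 17.97) at day 14. Id1 stood at 92.8, 165.08 and 140.91 TPM at days 7, 10 and 14, against 32.43 TPM at day 1. Tcf12, for an E protein that can pair with Twist1, stood at 64.11, 77.58 and 79.92 TPM at days 7, 10 and 14, against 28.93 TPM at day 1. Of the 15 genes on this list, 8 were listed, Twist1 among them, and all 8 were higher whenever listed. Of these, Hand1, Msgn1 and Tcf21 had at most 2 summed tags at day 1 and could not have been listed as lower. The list had 3, 6, 6 and 7 genes higher on days 4, 7, 10 and 14, when 21.3%, 25.9%, 40.2% and 49.8% of all genes were. Tcf3 and Tcf4, for the other E proteins on the list, were not listed at any day.

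Markers of cell types that express these genes moved over the same days, and their part in the results was not tested. Of 17 pluripotent cell markers, which accompany Cdh1 in undifferentiated cells, 8 were listed at any day. At day 4, 1 rose and 5 fell, when 20.9% of the 4213 genes were lower. At day 10, 0 rose and 6 fell, when 14.2% of all genes were lower. The summed level of these 6 fallen genes was 277.2 TPM at day 10 and 2989 TPM at day 1, a direction set by their listing. At day 7, when Cdh1 was higher, these sums were 518.4 TPM and again 2989 TPM at day 1. On that day 0 rose and 6 fell, when 14.9% of all genes were lower. Pou5f1, for the pluripotency factor Oct4, had 234.77 TPM at day 7 and 1489.45 TPM at day 1.

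Of 16 endoderm markers, a source of Krt18 and Cdh1 in embryos, 0 were listed at day 4. At day 14, 6 endoderm markers rose, when 49.8% of the 4213 genes were higher. Their summed level was 163.3 TPM at day 14, of which Dab2, also expressed in other tissues, held 140.62 TPM, and 10.2 TPM at day 1. Sox17 and Afp had 0 tags at day 1. Except for Dab2, the 6 markers had at most 7 summed tags at day 1, so they could be listed as higher only. Of 8 trophectoderm markers, 5 were listed at any day. At day 4, 2 rose, at day 7, 2 rose and 1 fell, and at each of days 10 and 14, 4 rose and 1 fell. Of all 4213 genes, between 21.3% and 49.8% were higher and between 14.2% and 20.9% lower on these days. Hand1 and Krt7, which are among the risen ones, had at most 2 summed tags at day 1 and could be listed as higher only. The fallen marker was Eomes, at 39.4, 15.11 and 11.12 TPM at days 7, 10 and 14, against 90.35 TPM at day 1. Cdx2, which is also a gene of posterior mesoderm, stood at 235.49, 164.58, 38.35 and 16.32 TPM at days 4, 7, 10 and 14, against 4.94 TPM at day 1. Of 9 mesothelium and epicardium markers, 2 rose at each of days 4, 7 and 10 and 4 at day 14, when their sum was 102.9 TPM, against 0.12 TPM at day 1. The listed ones had at most 2 summed tags at day 1, so they could be listed as higher only, and the share of all genes that were higher ran between 21.3% and 49.8% over these days.

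Some markers of tissues known for Twist1 were listed as higher, and most of these could be listed in that direction only. Of 14 somite and paraxial mesoderm markers, 7 were listed at any day. At day 4, 3 rose, at day 7, 4 rose, and at each of days 10 and 14, 6 rose. Of all 4213 genes, 21.3%, 25.9%, 40.2% and 49.8% were higher on these days. The summed level of the markers listed on each day was 692, 202.6, 97.5 and 63.3 TPM on days 4, 7, 10 and 14, against 2.59 TPM at day 1. The sums cover 3, 4, 6 and 6 genes, so they are not the course of 1 set. Most of the sum on days 4 and 7 was Tbx6, a T-box gene of presomitic mesoderm, which stood at 669.24, 152.72, 19.4 and 13.34 TPM on days 4, 7, 10 and 14, against 2.47 TPM at day 1. The other listed somite markers had at most 2 summed tags at day 1, too few to be listed as lower. Of 10 neural crest markers, 6 were listed at any day. At each of days 7, 10 and 14, 5 rose and 1 fell, the fallen one being Foxd3, with 0.46 TPM at day 14 and 10.1 TPM at day 1. Snai2, Sox9, Ngfr and Pax3 had at most 9 summed tags at day 1 and could be listed as higher only. Pax3, of somites and neural crest, had 44.84 TPM at day 7 and 0 tags at day 1. Of 14 cardiomyocyte markers, 11 rose at day 14, when 49.8% of all genes were higher. The sum of the 11 was 601.2 TPM, against 1.61 TPM at day 1. At day 1, 9 of the 11 had 0 tags and the others at most 26 summed tags, so they could be listed as higher only.

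For each gene, the courses most like it were found by the root mean square distance of log2((TPM + 1)/(day 1 TPM + 1)) over the days at which it was listed, a description over 3 or 4 days. Only genes with a symbol were compared, and the gene itself was left out. For Twist1, among 1052 such genes listed at days 7, 10 and 14, Crabp1 (distance 0.200), Tmem176b (0.271) and Aldh1a2 (0.313) were nearest. Crabp1, for a retinoic acid binding protein, stood at 48.09, 98.73 and 146.2 TPM at days 7, 10 and 14, against 2.12 TPM at day 1. For Krt18, among 555 such genes listed at all 4 days, Cpm (0.342), Hoxc5 (0.493) and Pik3ip1 (0.527) were nearest. This order depends on the added 1 TPM, since with 5 TPM added they ranked 64, 82 and 20. Cpm, for a membrane carboxypeptidase, stood at 3.97, 17.69, 8.21 and 7.38 TPM at days 4, 7, 10 and 14, against 0.12 TPM at day 1. For Cdh1, Arrdc4 (0.862) was nearest, and Nudc (1.23) and Eri2 (1.25), next in order among the same 1052 genes, were lower at day 7 and so did not share its rise.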

How the data were processed

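The 19 libraries of P19CL6 cells came from 1 µg of RNA each and the Illumina tag profiling protocol 2.1B, per the labels' protocols, and were grouped by the day in their labels. Build mm9 is named in the submitters' processing notes. The aligner, the handling of shared tags and the test behind the lists are not stated there or in the labels. The authors deposited 4 tables, which the design text calls FDR-filtered and so incomplete. The deposited raw signal is the authors' mean tag count per library of a day, not scaled for depth, per the file headers. TPM is the authors' depth-scaled mean, and the deposited log2 ratio is that of later day TPM over day 1 TPM, per the file headers. The deposited scores headed P-Value and FDR were not used, since FDR exceeds 1 for 55.9% to 60.2% of genes. The tables have 0 columns of single libraries, and whether the libraries are separate cultures is not stated.

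Mean counts were multiplied by the number of libraries to give summed tags, which lay within 0.02 of a whole number for at least 96.88% of values per table, and were rounded. Folds used these sums and the day totals implied by counts and TPM. Where the count was 0, TPM was set to 0. Genes were matched by symbol. The 3 genes and the 17 lists were chosen with earlier results of these data known. Up to 4 genes per list and day were eligible to be named. They had the largest deposited absolute log2 ratio at 5 TPM or more on the higher side. Not every eligible gene is named in the text. The 3 nearest courses per gene are named as well. Other days of a gene so named are also given. Named outside this rule, after values were seen, were Tagln, Itga5, Col1a1, Thy1, Tcf12, Cdh20, Dsc2, Afp, Krt15 and the genes said not to be listed. The pathway annotation counts, course counts, neighbouring genes and promoter motifs were also chosen after seeing the data. Alternatives were the deposited ratio, pseudocounts of 1 and 5, ratios of raw means, abundance and fold limits, and older symbols. Calculations used Python 3.11.15 with numpy 2.4.6, scipy 1.17.1 and pandas 2.3.3, and plots matplotlib 3.10.9. The day 7 result of the endoderm list is not reported here. Interval code was tested on simulated data.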

Additional observations from a re-analysis of the deposited data

How the results depend on the processing

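The folds of Cdh1, Krt18 and Twist1 kept their direction under every alternative tried, and the deposited log2 ratio and the ratio of raw means stayed within the counting interval of each of them. With log2(TPM + 1), Twist1 moved to 4.31, 5.07 and 5.52 at days 7, 10 and 14, against 4.73, 5.49 and 5.94 without a pseudocount. With log2(TPM + 5) it moved to 3.36, 4.09 and 4.52, Krt18 to 1.31, 3.20, 2.08 and 2.19 at days 4, 7, 10 and 14, and Cdh1 to 1.02, -0.72 and -0.72 at days 7, 10 and 14. A pseudocount shrinks the ratio of a gene with a low level by construction.

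Summed over the 4 days, the epithelial junction list gave 7 listings as higher and 6 as lower. Among genes changed at least 4-fold these were 2 and 1, and with genes under a table's median abundance left out the lower listings were 2. With that same limit, keratin listings as higher were 7 in place of 13, EMT factor listings 9 in place of 27, and mesenchymal listings 26 in place of 50. The 1 mesenchymal listing as lower dropped to 0 under each of these limits. Cdh1 at days 10 and 14 and Krt18 at day 4 are themselves below the median abundance of their tables. Matching older symbols left these 4 lists' sums unmoved, but gave 2 epithelial regulators as higher in place of 1 at each of days 10 and 14, and 7 surface ectoderm listings as higher over the 4 days in place of 4. Of the nearest courses, 2 of 9 stayed among the 3 nearest of their gene with a pseudocount of 5.

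No paired analysis was possible because the columns hold means per day and carry no replicate numbers, and for the same reason leaving out each replicate was not run. Depth limits Twist1 most, since 1 summed tag at day 1 is 0.0574 TPM and its folds over day 1 rest on 50 tags there.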

Other observations

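Among intermediate filaments other than keratins, 2 neurofilament genes fell and 1 lamin gene changed direction. Nefl, for the light neurofilament chain, had 0.51 TPM at day 7 and 11.31 TPM at day 1, 22-fold lower (12.3 to 43.3). Nefm, for the medium chain, had 5.1 TPM at day 7 and 23.59 TPM at day 1. Lmna, for lamins A and C, which are low in pluripotent cells, had 5.08 TPM at day 4, 2.58-fold lower (2.06 to 3.25) than the 13.09 TPM of day 1, and 59.91 TPM at day 7, 4.58-fold higher (3.98 to 5.29) than day 1. Lmnb2, for lamin B2, was listed at day 4 alone, with 47.56 TPM at day 4 and 113.88 TPM at day 1. Nes, for the filament protein of neural and muscle progenitors, had 176.57 TPM at day 7 and 54.64 TPM at day 1, and was not listed at other days.

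Among surface ectoderm markers, Perp, a gene for a desmosomal membrane protein that is also a p53 target, had 15.61, 12.72, 11.75 and 19.42 TPM at days 4, 7, 10 and 14, against 42.02 TPM at day 1. Of the 8 genes of that list, 3 were listed by symbol at any day. The other two were higher whenever listed, Grhl3 at days 7, 10 and 14 and Krt15 with 2.85 TPM at day 14 and 0 tags at day 1.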
